A study of Mus musculus with 11 samples.

Results

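The cell cycle genes described here are 32 genes chosen by name from the 24411 genes measured in mouse back skin. Of these, 20 belong to mitosis, 9 to DNA synthesis in S phase and 3 to the passage from G1 into S phase (G1/S). All 32 were found in the data and all 32 passed the filter on low counts, the member with the fewest reads being Ccne1 with 25 counts in its lowest sample. Total RNA was sequenced from 11 skin samples of Tg(act-EGFP)Y01Osb hosts, a strain with an EGFP transgene, given as age 16-18 without a unit. Each host was irradiated with 10 Gy and received femoral marrow cells by tail vein, sorted as tdTomato-positive (4 samples) or tdTomato-negative (7 samples) from Pdgfra-Cre;tdTomato donors, in which Cre under Pdgfra control switches on the red reporter in cells of that lineage. After 6 weeks of recovery all 11 skins were treated 6 times with MC903, also called calcipotriol, an analog of vitamin D whose application causes a dermatitis used to model atopic dermatitis, and were collected on day 14. Both groups therefore shared the irradiation, the transplant and the dermatitis, and no untreated skin is among the samples. Only marrow was transplanted, and the labels do not state how many donor cells the skin held or of which types. The labels do not say whether the numbered samples are separate animals, and p-values therefore cover only the variation among these samples.

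A dividing cell switches its genes on in waves. Cyclin E and the licensing factor Cdc6 come at the end of G1. The Mcm helicase, the clamp Pcna and the enzymes that make nucleotides, which serve S phase, come from the end of G1 into S phase. The cyclins, kinases, motors and ubiquitin ligase parts of mitosis peak last, before the cell divides. In skin most dividing cells are basal keratinocytes and, in growing hair follicles, the matrix cells that make the hair shaft. Inflamed epidermis thickens and its keratinocytes switch on the stress keratins Krt6a, Krt6b, Krt16 and Krt17. In whole tissue, fewer cells of a type and less RNA per cell cannot be told apart.

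The promoters of 5 members are shown because the mitotic and S phase genes differ in the motifs they hold. They come from RefSeq on GRCm38.p6 and run from 220 bases before the start of the gene to 20 bases after it, 5′ to 3′ on the strand of the gene. Mki67 lies on the minus strand at chr7:135716360-135716599, Ccnb2 on the minus strand at chr9:70421535-70421774 and Cdk1 on the minus strand at chr10:69352893-69353132. Of the S phase genes, Mcm5 lies on the plus strand at chr8:75109289-75109528 and Mcm6 on the minus strand at chr1:128359686-128359925. Capitals mark each match, on either strand, to the cell cycle homology region (CHR, searched as TTTGAA), to the CCAAT box (CCAAT) or to an E2F motif (TTTGGCGC, TTTGCCGC, TTTCGCGC or TTTCCCGC). The CHR is bound by the DREAM and MuvB complexes that time mitotic genes, the CCAAT box by NF-Y, and E2F motifs by the E2F factors that act at the entry into S phase.
Mki67: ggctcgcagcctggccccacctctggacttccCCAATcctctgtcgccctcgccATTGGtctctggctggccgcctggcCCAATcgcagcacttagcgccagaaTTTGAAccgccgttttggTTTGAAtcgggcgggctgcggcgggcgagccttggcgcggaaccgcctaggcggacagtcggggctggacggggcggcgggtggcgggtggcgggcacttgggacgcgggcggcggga
Ccnb2: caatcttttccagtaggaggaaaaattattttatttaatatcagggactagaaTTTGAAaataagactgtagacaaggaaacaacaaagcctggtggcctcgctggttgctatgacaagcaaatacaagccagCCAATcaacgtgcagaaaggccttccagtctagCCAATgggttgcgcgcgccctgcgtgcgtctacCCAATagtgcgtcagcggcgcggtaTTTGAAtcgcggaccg
Cdk1: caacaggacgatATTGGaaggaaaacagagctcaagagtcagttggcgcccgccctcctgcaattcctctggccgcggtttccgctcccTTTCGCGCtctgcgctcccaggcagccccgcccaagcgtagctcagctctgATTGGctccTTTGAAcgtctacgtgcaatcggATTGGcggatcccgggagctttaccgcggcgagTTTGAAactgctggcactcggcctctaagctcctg
Mcm5: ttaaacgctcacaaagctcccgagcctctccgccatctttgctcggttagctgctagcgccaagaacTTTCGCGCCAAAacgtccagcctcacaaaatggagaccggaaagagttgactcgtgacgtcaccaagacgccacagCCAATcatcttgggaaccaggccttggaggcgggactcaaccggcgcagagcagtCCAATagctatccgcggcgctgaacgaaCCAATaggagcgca
Mcm6: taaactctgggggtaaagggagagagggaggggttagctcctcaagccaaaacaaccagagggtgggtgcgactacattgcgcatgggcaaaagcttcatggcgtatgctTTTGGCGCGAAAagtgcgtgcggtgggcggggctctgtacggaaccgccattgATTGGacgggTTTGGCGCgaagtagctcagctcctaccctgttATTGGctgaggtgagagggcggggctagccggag

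The 3 mitotic promoters each hold 2 CHR matches and 3 CCAAT boxes, and Cdk1 holds an E2F match besides. The Mcm5 and Mcm6 promoters hold no CHR match but 2 and 3 E2F matches, and in each of them a pair of E2F matches on opposite strands overlaps. Promoter entries were found for 26 of the 32 members and were searched from 250 bases before the start to 50 after it. Ccna2, Aurkb, Tpx2, Kif20a, Mcm4 and Ccne2 had no entry. TTTGAA was present in 11 of 16 mitotic promoters (68.8%), in 1 of 9 S phase entries (11.1%, Mcm2), which belong to 8 genes because Mcm7 has a pair of entries, and in 17.9% of all 32851 promoters of this length. At least 1 E2F match was present in 1 of 16 mitotic promoters (6.25%, Cdk1) and in 2.26% of all promoters. Of the 9 S phase entries 4 held such a match (44.4%), 1 entry each of Mcm3, Mcm5, Mcm6 and Mcm7. CCAAT was common to both classes, in 14 of 16 mitotic promoters (87.5%) and 8 of 9 S phase entries (88.9%, those of 7 genes), against 37.4% of all. A match of letters is a description and does not show that a factor binds there.

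The members differed widely in level. Compared per length, in TPM (transcript abundance relative to the sample's total), the median over the 11 samples was highest for Pcna, the sliding clamp that holds DNA polymerase on DNA, at 117 TPM. Mki67, whose protein coats mitotic chromosomes and is the usual stain for cycling cells, followed at 71.1 TPM, and Top2a, the topoisomerase that untangles sister chromatids, at 67.7 TPM. Ube2c, the ubiquitin-conjugating enzyme of the anaphase promoting complex, stood at 42.1 TPM. The lowest were Bub1, a kinase of the spindle checkpoint, at 5.88 TPM, cyclin E1 (Ccne1) at 4.46 TPM and Cdc6, which loads the Mcm helicase on origins, at 2.51 TPM. Some reads of Ccna2, Kif20a, Nusap1, Tyms and Ccne2 were in part divided between genes by the authors' counting, so their values carry that uncertainty.

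The first comparison asked whether cell cycle RNA differed between skin of hosts with tdTomato-positive and with tdTomato-negative marrow. Levels between samples are given in CPM, the counts of a gene relative to those of all genes tested in the sample, scaled with TMM factors and not corrected for length. The 20 mitotic genes together made up 1324, 1197, 916 and 1447 CPM in the 4 tdTomato-positive samples, against a lowest of 531, a median of 1282 and a highest of 1589 CPM in the tdTomato-negative samples. The positive samples lay within the range of the negative ones, and the sample far below the rest was tdTomato-negative replicate 1. The means were 1221 ± 227 CPM (SD, n = 4) with positive and 1228 ± 350 CPM (SD, n = 7) with negative marrow, or 1344 ± 182 CPM in the 6 negative samples without replicate 1. The 9 S phase genes summed to 424, 395, 313 and 402 CPM in the positive samples, against a lowest of 266, a median of 413 and a highest of 473 CPM in the negative ones. Here too the groups overlapped and the lowest sample was tdTomato-negative replicate 1.

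**Figure D1:**
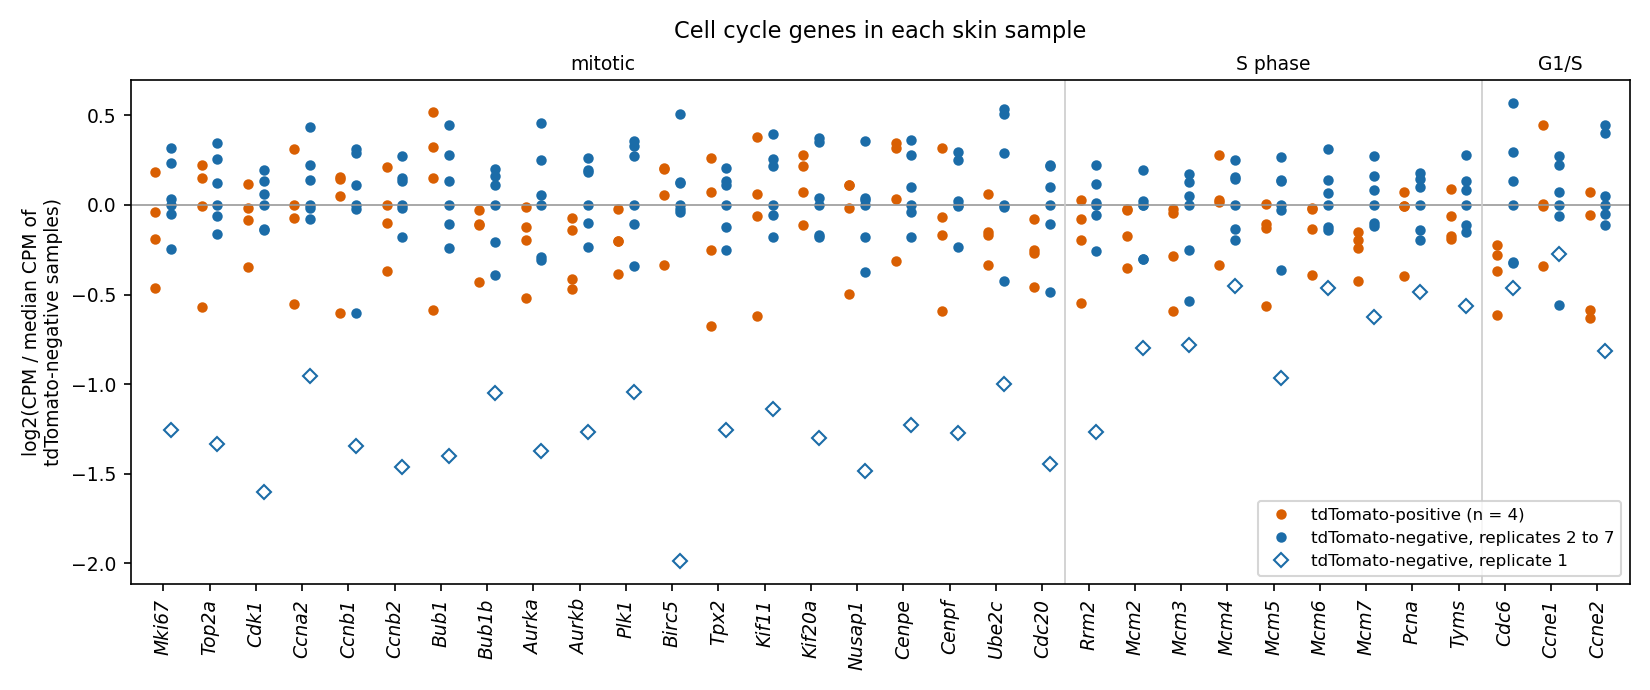
Each of the 32 cell cycle genes (horizontal axis) in each sample, as log2 of its CPM over the median CPM of the 7 tdTomato-negative samples (vertical axis), with tdTomato-positive samples in orange, tdTomato-negative replicates 2 to 7 in blue and tdTomato-negative replicate 1 as an open diamond. The ranges of the orange and filled blue points overlap for every gene but Mcm7, and the diamond lies lowest for all 20 mitotic and all 9 S phase genes.

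None of the 32 members passed the test between the groups. edgeR's quasi-likelihood test with Benjamini-Hochberg adjustment called 0 of 14588 genes (0.00%) and 0 members at an adjusted p under 0.05. At an unadjusted p under 0.05 there were also 0 members, against 1029 genes higher (7.05%) and 1419 genes lower (9.73%) in tdTomato-positive skin over all genes. The CPM ranges of the groups were apart for 0 members, against 1.67% of all genes. The median log2 fold change, positive over negative, was -0.0060 for the mitotic genes (9 above 0, 11 below), -0.070 for the S phase genes (1 above, 8 below) and -0.0070 for all genes. Without tdTomato-negative replicate 1, 4 of 32 members had an unadjusted p under 0.05, beside 3276 of all 14514 genes, still with 0 called. The medians were then -0.12 and -0.15 for the mitotic and S phase genes. Without tdTomato-positive replicate 3, the lowest positive sample, they were 0.13 and 0.034.

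Mki67 had 462, 417, 345 and 540.4 CPM in tdTomato-positive skin, against a lowest of 199, a median of 476 and a highest of 594 CPM in tdTomato-negative skin. All 4 positive values lay inside the negative range, and the value of 199 CPM, that of replicate 1, was below the next lowest negative value of 401 CPM. The log2 fold change was -0.040 ± 0.24 (SE) with a 95% interval of -0.56 to 0.48 and an edgeR adjusted p of 0.949. A two-sided exact permutation test of the difference in mean CPM over all 330 splits gave p = 0.873, where 0.00303 is the smallest p it can give. Top2a behaved alike, with 235, 211, 143 and 248 CPM in positive samples and 84.2, 212 and 270.1 CPM as the lowest, median and highest negative values (log2 fold change 0.022 ± 0.26). Neither gene separated the groups.

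Among the genes that carry a cell into and through mitosis the picture was the same. Ccnb1, the cyclin B1 that activates Cdk1 at mitotic entry, had 40.9, 38.1, 24.2 and 40.5 CPM in positive samples, against 14.4, 36.7 and 45.5 CPM as the lowest, median and highest in negative ones. Its log2 fold change was 0.056 ± 0.27. Positive replicate 3 was far below the other positive samples for this gene. Cdc20, which activates the anaphase promoting complex, had 23.9, 21.0, 18.4 and 21.2 CPM in positive samples, against 9.27, 25.3 and 29.5 CPM in negative ones, a log2 fold change of -0.13 ± 0.25. The mitotic members with the smallest p above 0 were Kif20a, a kinesin of cytokinesis, Bub1, and Cenpe, a kinesin at the kinetochore. Kif20a had 33.5, 35.0, 26.7 and 30.4 CPM in positive samples, against 11.7, 28.9 and 37.4 CPM in negative ones, a log2 fold change of 0.17 ± 0.24. Bub1 had 18.3, 16.2, 9.76 and 20.9 CPM, against 5.54, 14.6 and 19.9 CPM (0.19 ± 0.29), and Cenpe 75.0, 60.4, 47.5 and 73.6 CPM, against 25.2, 59.0 and 75.8 CPM (0.15 ± 0.24). All 3 had an edgeR adjusted p of at least 0.742. Cdk1, Ccna2, Ccnb2, the checkpoint gene Bub1b, the kinases Aurka, Aurkb and Plk1, the survivin gene Birc5, the spindle genes Tpx2, Kif11 and Nusap1, the kinetochore gene Cenpf and Ube2c had log2 fold changes between -0.21 (Ube2c) and 0.089 (Nusap1).

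Of the S phase genes, Pcna had 79.9, 79.9, 60.9 and 84.3 CPM in positive samples, against 57.4, 80.3 and 90.9 CPM as the lowest, median and highest in negative ones. Its log2 fold change was -0.035 ± 0.13, with a 95% interval of -0.32 to 0.25. Mcm2 to Mcm7 encode the 6 subunits of the replicative helicase. Mcm2 had 35.9, 32.5, 28.7 and 36.1 CPM in positive samples, against 21.1, 36.7 and 42.0 CPM in negative ones (-0.0020 ± 0.16). Mcm5 had 51.0, 46.5, 34.3 and 47.3 CPM, against 26.0, 50.8 and 61.2 CPM (-0.11 ± 0.20). Mcm7 came nearest to a difference in this class, with 47.9, 46.4, 39.5 and 45.0 CPM in positive samples, against 34.4, 53.1 and 64.0 CPM in negative ones, a log2 fold change of -0.23 ± 0.14 and an adjusted p of 0.412 by edgeR. All 4 positive values were below the 48.9 CPM of the lowest negative sample other than replicate 1, and replicate 1 was below them. Tyms, the thymidylate synthase, had 18.9, 21.1, 17.4 and 17.6 CPM in positive samples, against 13.4, 19.8 and 23.98 CPM in negative ones (-0.052 ± 0.14). Mcm3, Mcm4, Mcm6 and Rrm2, the small subunit of ribonucleotide reductase, had log2 fold changes between -0.12 and 0.027.

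The 3 G1/S genes include the member with the smallest p of the group comparison, Cdc6. Cdc6 had 6.48, 7.15, 5.45 and 6.89 CPM in positive samples, against a lowest of 6.05, a median of 8.35 and a highest of 12.4 CPM in negative samples. Its log2 fold change was -0.39 ± 0.20 (adjusted p = 0.337 by edgeR). The cyclin E2 gene Ccne2 had 7.48, 11.1, 7.71 and 12.2 CPM, against 6.57, 11.6 and 15.8 CPM (-0.31 ± 0.23, adjusted p = 0.485 by edgeR). Ccne1 had 6.98, 5.11, 5.14 and 4.05 CPM, against 3.49, 5.13 and 6.20 CPM (0.074 ± 0.19), so the cyclin E pair did not share a sign. The groups overlapped for all 3 genes.

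Wider lists of cell cycle genes gave 0 calls between the groups as well. Among 19 genes of G1 control the smallest p values were those of E2f4, a repressing E2F, with 27.8 ± 2.0 CPM in positive and 33.4 ± 3.0 CPM in negative samples (log2 fold change -0.26 ± 0.085), and of the pocket protein gene Rbl2 (0.17 ± 0.067). Among 34 further replication genes they were those of Pold1, the catalytic subunit of DNA polymerase delta, with 11.7 ± 0.68 and 15.9 ± 1.9 CPM (-0.44 ± 0.11), and of the uracil glycosylase gene Ung (-0.50 ± 0.16). The means are over 4 positive and 7 negative samples, and the adjusted p of edgeR was 0.263 for Rbl2 and 0.248 for the other 3 genes. In positive samples Pold1 lay between 10.9 and 12.4 CPM, below the 13.1 to 17.5 CPM of the negative samples. E2f4 lay between 25.0 and 29.3 CPM, just below their 29.8 to 38.3 CPM. Both genes were picked for their small p, and the ranges were apart for 244 of all 14588 genes (1.67%). Among 58 further mitosis genes Espl1, the separase, was at -0.45 ± 0.20 and Pttg1, the securin that restrains it, at 0.24 ± 0.13, and among the 10 genes of CDK inhibitors and Wee1 kinases Cdkn2b was at -0.49 ± 0.19 and Cdkn1a at -0.23 ± 0.12. Of the 8 genes of FOXM1, MuvB and their partners, Mybl2, the B-Myb subunit, was at -0.78 ± 0.26 and Lin52 at -0.20 ± 0.14. Of 61 histone genes tested, all 61 were below 0 with a median of -0.42, where Hist3h2ba (-2.02 ± 0.69) and Hist1h4j (-0.62 ± 0.26) had the smallest p, and 0 were called. Hair genes took 0.521 ± 0.723% of counts in positive samples and 2.605 ± 1.83% in negative samples (SD, n = 4 and 7). With hair RNA as a covariate the histone median was -0.0030 and the mitotic median 0.24, with 0 members called.

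Hair content differed widely among these skins. Hair keratins and their partners, 24 genes in all, took 0.332%, 0.0592%, 0.102% and 1.59% of the counts in the tdTomato-positive samples, against 0.294%, 2.80%, 5.07%, 2.84%, 3.34%, 3.85% and 0.0393% in tdTomato-negative replicates 1 to 7. tdTomato-negative replicates 2 to 6 were thus all above the positive samples, while replicate 1 lay among them and replicate 7 below them. The second comparison asked how the members changed along this content within the groups, as the log2 change per doubling of summed hair RNA with the group kept as a term.

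**Figure D2:**
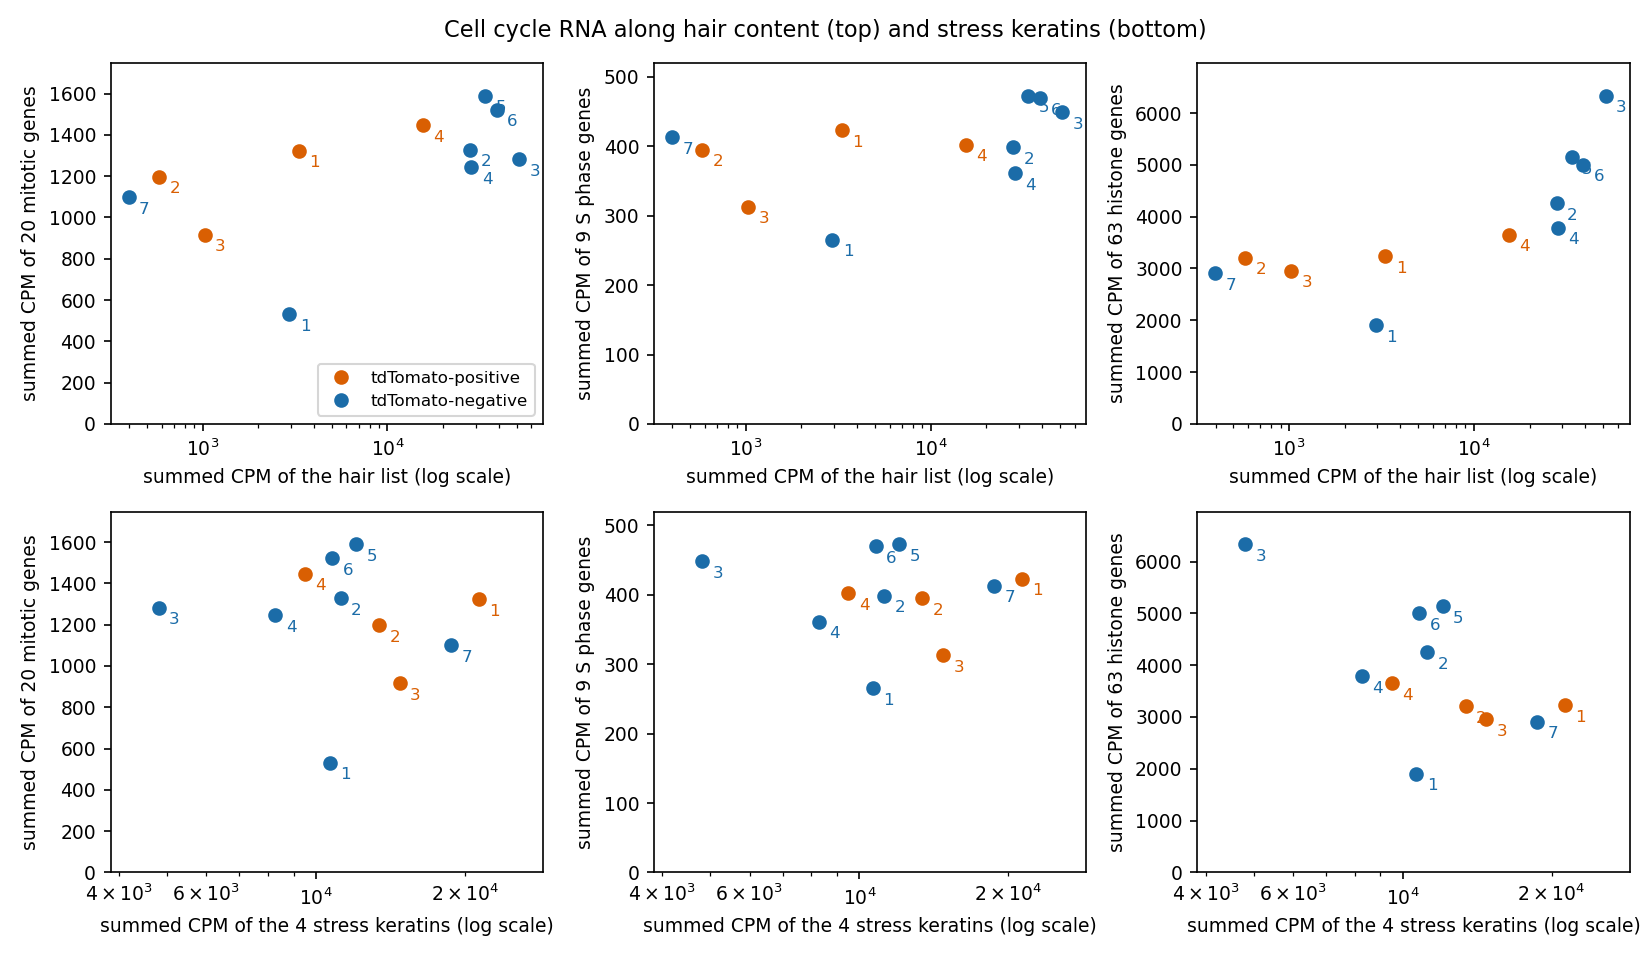
Summed CPM of the 20 mitotic genes, the 9 S phase genes and the 63 histone genes (left to right, vertical axes from 0) against the summed CPM of the 24 hair genes (top row) and of the 4 stress keratins (bottom row), both on log axes, with 1 point per sample and its replicate number, tdTomato-positive in orange and tdTomato-negative in blue. Histone RNA was highest, at 6333 CPM, in tdTomato-negative replicate 3, which had the most hair RNA and the least stress keratin RNA.

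All 32 members had a positive hair slope, and none passed the threshold. The members varied together across samples (median Pearson correlation of log2 CPM 0.848), so the 32 slopes are not 32 separate observations. edgeR called 1633 of 14564 genes (11.2%) over all genes outside the hair list, 1038 of them upward (7.13%) and 595 downward (4.09%), and 0 members. The 11 members with an unadjusted p under 0.05 stand beside 14.7% of all genes with such a p in this direction. The median slope was 0.093 for the mitotic genes, 0.038 for the S phase genes, 0.023 for the G1/S genes and -0.0020 for all genes, of which 48.6% were above 0. The mitotic slopes ran from 0.062 (Plk1) to 0.14 (Ccnb1) and the S phase slopes from 0.015 (Mcm4) to 0.062 (Rrm2), so that only Rrm2 reached the lowest mitotic slope.

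Ube2c had the smallest p, with 17.8, 17.6, 15.7 and 20.7 CPM in the tdTomato-positive samples, against 14.8 CPM as the lowest of tdTomato-negative replicates 2 to 7, 28.7 CPM as their highest, and 9.91 CPM in replicate 1. The highest positive value was that of replicate 4, the positive sample with the most hair RNA. Its slope was 0.13 ± 0.040 with an adjusted p of 0.0546 by edgeR. Ccnb1 followed at 0.14 ± 0.046 (adjusted p = 0.0761 by edgeR). Cenpf had 84.5, 78.8, 58.9 and 110.5 CPM in positive samples, against 36.7, 88.7 and 108.8 CPM as the lowest, median and highest in negative ones, and a slope of 0.11 ± 0.042. Here too positive replicate 4 was the highest of its group. In negative replicate 3, the sample with the most hair RNA of all, Cenpf was at 88.3 CPM, close to the negative median, and the summed mitotic level of 1282 CPM was that median. Cdc20 had a slope of 0.11 ± 0.045, Mki67 of 0.10 ± 0.041 and Top2a of 0.093 ± 0.047. Of the S phase genes only Pcna had an unadjusted p under 0.05, at 0.058 ± 0.023, while Mcm5 (0.050 ± 0.040), Tyms (0.038 ± 0.029) and Mcm2 (0.032 ± 0.033) did not. Ccne1 was near flat at 0.012 ± 0.043.

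**Figure D3:**
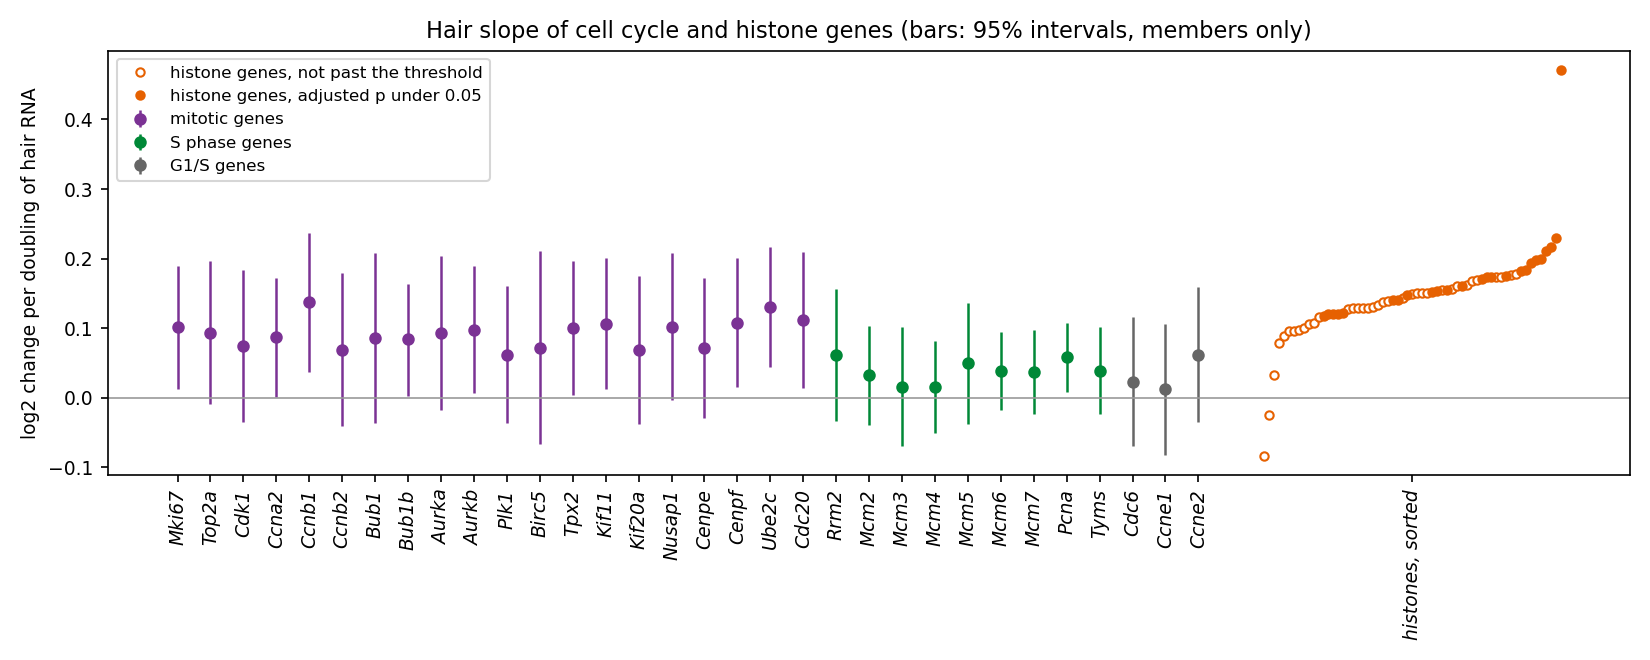
Log2 change per doubling of hair RNA (vertical axis) for each member with its 95% interval, mitotic in purple, S phase in green and G1/S in grey, and for the 61 histone genes tested, sorted, as orange points that are filled where the adjusted p was under 0.05. All 32 members lie above 0, and 25 of the histone points are filled.

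These slopes rested in part on single samples. Without tdTomato-negative replicate 7, which had the least hair RNA, the medians were 0.20 for the mitotic and 0.096 for the S phase genes, and 6 members were called (Aurkb, Ccna2, Cenpf, Kif11, Mki67 and Tpx2), all upward, while 751 of all 14515 genes (5.17%) were called upward. Without tdTomato-positive replicate 2 there was 1 member, Ccnb1, beside 964 genes upward (6.57% of all). Without tdTomato-negative replicate 1, which combines low hair RNA with the lowest mitotic level, the medians were 0.060 and 0.018, and with both replicates 1 and 7 left out they were 0.074 and 0.056, with 27 of 32 members above 0 and 0 called. DESeq2 called Ccnb1 and Ube2c upward, 2 of 32 members, against 1242 of all genes (8.53%), so the share of members was below that of all genes.

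Many histone genes, whose RNA is made in S phase and mostly lacks a poly(A) tail, rose with hair content. RNA of this kind is kept by the library method used here, which removes ribosomal RNA instead of selecting poly(A) tails. Summed histone RNA was 3233, 3210, 2961 and 3656 CPM in positive samples, against a lowest of 1907, a median of 4256 and a highest of 6333 CPM in negative ones. The lowest was again replicate 1. Of 61 histone genes tested, 25 rose (41.0%, against 7.13% of all genes) and 0 fell, with a median slope of 0.15. The genes with the smallest p were Hist3h2ba, at 0.997, 0.256, 1.03 and 1.62 CPM in positive samples, against 0.644, 3.80 and 9.70 CPM as the lowest, median and highest in negative ones (slope 0.47 ± 0.089, edgeR adjusted p = 0.0049), and Hist3h2a (0.18 ± 0.039, edgeR adjusted p = 0.0101). Many histone genes of one type are near-identical, so reads may be divided between them and the 25 are not 25 separate observations. The count of histone genes called fell to 14, 14, 13, 10 and 15 without tdTomato-negative replicates 2, 3, 5, 6 and 7, taken one at a time, and to 0 with replicates 1 and 7 both left out or with the stress keratins as a further term.

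In the other cell cycle lists, a pair of D-type cyclins and a pair of E2F genes rose with hair content. Of 19 genes of G1 control 5 rose (26.3%) and 1 fell, against 7.13% of all genes that rose and 4.09% that fell. In the other lists the share that rose was 10% of the CDK inhibitor list, 2.94% of the replication list, 3.45% of the mitosis list and 0 of 8 in the FOXM1 and MuvB list, so the last 3 were below the share of all genes. Cyclin D2 (Ccnd2) rose with the smallest p, at 223, 229, 206 and 377 CPM in positive samples, against 206, 419 and 463 CPM as the lowest, median and highest in negative ones, a slope of 0.17 ± 0.020 (edgeR adjusted p = 0.000177). The positive sample with most hair RNA had the most Ccnd2 in its group. Cyclin D1 (Ccnd1) rose by 0.090 ± 0.019 per doubling (edgeR adjusted p = 0.00847), E2f2, E2f3 and Mycn rose too, and Ccnd3 fell (slope -0.079). Of the 10 CDK inhibitor and Wee1 kinase genes 1 rose, Cdkn1c, which encodes p57 (0.13 ± 0.034, edgeR adjusted p = 0.0325), and Cdkn1b came next (0.053 ± 0.018, adjusted p = 0.0726 by edgeR). Of 34 replication genes 1 rose, Dut, the dUTPase (0.10 ± 0.031, edgeR adjusted p = 0.0491), and Uhrf1 followed (0.093 ± 0.041, adjusted p = 0.162 by edgeR). Of 58 mitosis genes 2 rose, the chromatin protein gene Hmgb2 (0.12 ± 0.035) and Cdca3 (0.13 ± 0.038), and 1 fell, the phosphatase gene Cdc25b (slope -0.080). Of the 8 FOXM1 and MuvB genes 0 passed, with Lin9 (0.078 ± 0.029) and Mybl2 (0.11 ± 0.043) at the smallest p.

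Markers of other tissue parts moved with hair content as well. All 9 of 9 hair follicle regulators rose, as did 1 of 5 melanocyte and 1 of 6 erythroid genes, against 7.13% of all genes. By contrast 2 of 7 basal, 4 of 8 suprabasal, 3 of 6 endothelial and 1 of 4 stress keratin genes fell, against 4.09% of all genes. Summed levels of the basal keratinocyte list ranged from 11225 to 18085 CPM in positive and from 8121 to 17455 CPM in negative samples, and those of the suprabasal list from 10816 to 22761 CPM and from 6667 to 21557 CPM. The keratinocyte markers of the labelled tissue were thus present throughout. Their part in the slopes of the members was not tested.

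The third comparison followed the members along the stress keratins, again with the group as a term. These 4 keratins summed to 21279, 13401, 14744 and 9496 CPM in the positive samples, against a lowest of 4807, a median of 10788 and a highest of 18698 CPM in the negative ones. The groups overlapped, with tdTomato-negative replicate 3 lowest and tdTomato-positive replicate 1 highest. The 4 genes did not move as one. Krt17 had 1310, 1408, 1516 and 1224 CPM in the positive samples, against a lowest of 1381 and a highest of 2069 CPM in the negative ones, and its group log2 fold change was -0.42, against 0.45 for Krt6a, 0.66 for Krt6b and 0.55 for Krt16. In tdTomato-negative replicate 3, where the other 3 genes were at their lowest (1486 CPM for Krt6a, 786.6 CPM for Krt6b and 507.8 CPM for Krt16), Krt17 was at 2026 CPM, near its highest. edgeR called 18 of 14584 genes (0.123%) and 0 members, and 0 members had an unadjusted p under 0.05, against 8.17% of all genes upward and 9.42% downward. The median slope was -0.075 per doubling of stress keratin RNA for the mitotic genes (3 above 0, 17 below), 0.0010 for the S phase genes (5 above, 4 below) and -0.0010 for all genes. With hair RNA as a further term the medians were 0.30 and 0.13 and all 32 members lay above 0, still with 0 called, so the sign of the mitotic median depended on whether hair content was in the fit.

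Mcm4 had the smallest p of the members, with 59.8, 49.8, 39.2 and 50.2 CPM in positive samples, against 36.0, 49.4 and 58.7 CPM as the lowest, median and highest in negative ones, and a slope of 0.18 ± 0.13 (adjusted p = 0.491 by edgeR). Its highest sample, tdTomato-positive replicate 1, was also highest in stress keratins. Below 0 the smallest p values were those of Ube2c (-0.23 ± 0.23), Pcna (-0.099 ± 0.12) and Cdc20 (-0.18 ± 0.23), and above 0 Mcm4 was followed by Ccne1 (0.089 ± 0.19) and Cenpe (0.10 ± 0.23). Mki67 had a slope of -0.12 ± 0.23, Top2a of -0.022 ± 0.25, Ccnb1 of -0.14 ± 0.27, Mcm2 of 0.019 ± 0.15, Mcm5 of 0.0010 ± 0.19 and Tyms of -0.054 ± 0.13. The intervals were wide: that of Mki67 ran from -0.62 to 0.38.

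None of the other cell cycle lists held a gene called along the stress keratins. The genes with the smallest p were Ccnd2 (-0.51 ± 0.18) and E2f5 (-0.41 ± 0.14) in G1 control, Cdkn2b (-0.41 ± 0.14) and Cdkn1c (-0.38 ± 0.18) among the inhibitors, and Tfdp2 (-0.23 ± 0.095) and Lin52 (-0.21 ± 0.13) among the FOXM1 and MuvB genes. For replication they were Pola1 (0.27 ± 0.16) and Ung (-0.21 ± 0.14), for mitosis the checkpoint kinase gene Ttk (0.41 ± 0.13) and Cdc25b (0.29 ± 0.12), and for histones Hist3h2ba (-1.26 ± 0.44) and Hist1h2an (-0.77 ± 0.28). The smallest edgeR adjusted p among these genes was 0.165, for Ttk. Of 61 histone genes 60 were below 0, with a median of -0.41. With hair RNA as a further term the histone median was -0.082.

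A large contrast in cell cycle RNA lay within the tdTomato-negative group. In replicate 1 all 20 mitotic genes were under 50% of the median of the other 6 negative samples, from 26.3% for Birc5 to 49.6% for Ccna2, with a median log2 ratio of -1.29 (0.5 CPM was added to each value before these ratios). Over all genes tested 4.59% were that low, and the median log2 ratio was -0.011. The 4124 reads of the mitotic genes in this sample give 531 CPM with a 95% Poisson interval of 515 to 547 CPM, so counting error, which is all the interval covers, is small beside the gap to the next negative sample at 1099 CPM. This is a single sample, chosen for its low mitotic level after the values were seen. Apart from the gap test given under the flagged results, no test was made of it. That gap test flagged Cdk1, Ccnb2, Birc5 and Tpx2 in this sample, but not Mki67 or a summed level.

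**Figure D4:**
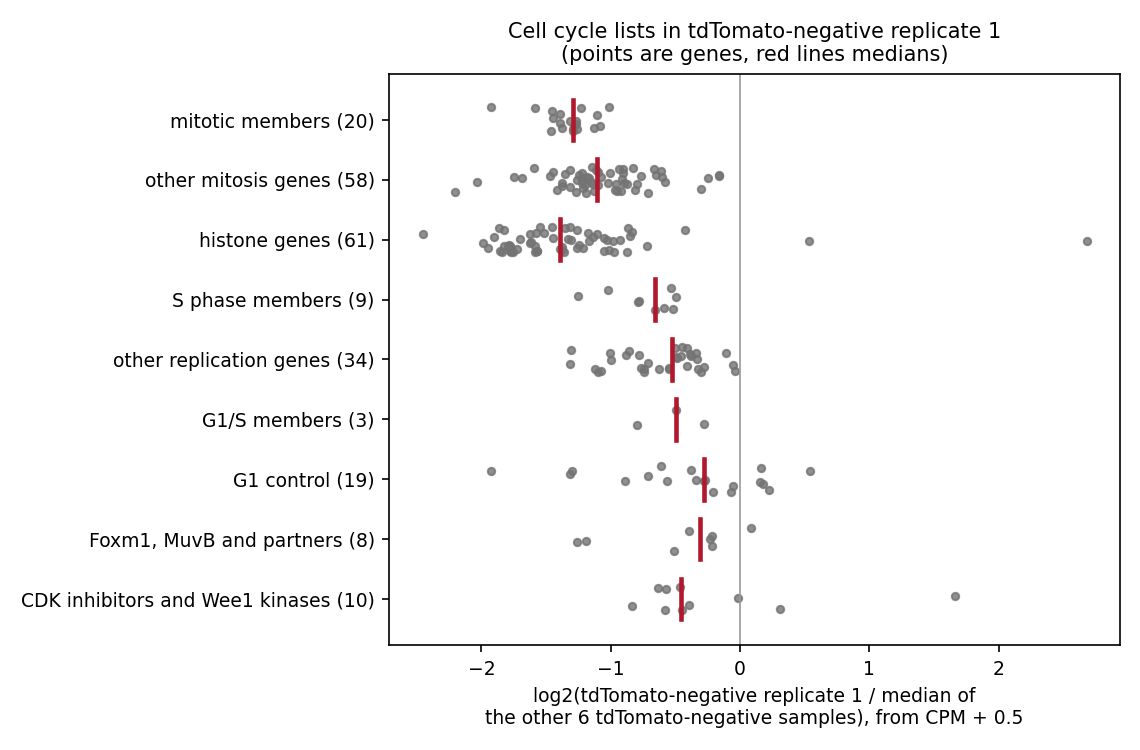
Log2 ratio, from CPM plus 0.5, of tdTomato-negative replicate 1 to the median of the other 6 tdTomato-negative samples (horizontal axis) for the genes of 9 cell cycle lists (rows, with the number of genes tested), where points are genes and red lines are medians. The median is -1.29 for the mitotic members, -0.66 for the S phase members and -1.40 for the histone genes.

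The S phase members were less low in this sample than the mitotic members, but histone genes, whose RNA is also made in S phase, were not. Of 61 histone genes 59 were below the median of the other negative samples, 50 of them by a log2 ratio under -1. Their median log2 ratio was -1.40, against -1.29 for the mitotic members. All 9 S phase members were below the median of the other negative samples, but 2 were under 50% of it, Rrm2 at 42.0% and Mcm5 at 49.4%. Pcna stood at 69.2%, Mcm4 at 69.8% and Mcm6 at 71.1%. Cdc6 was at 70.8%, Ccne2 at 57.5% and Ccne1 at 82.5%. The difference of mean log2 CPM, S phase minus mitotic, was 0.89 in replicate 1 and 0.49 in replicate 7 of the negative group. It lay between 0.12 and 0.31 in the 4 positive samples and between 0.11 and 0.35 in the remaining 5 negative ones. The wider mitosis and replication lists moved as the members did: all 58 further mitosis genes (median log2 ratio -1.11) and all 34 further replication genes (median -0.53) were below the other negative samples. Foxm1 (43.9%), Mybl2 (41.8%), E2f7 (40.3%), E2f8 (40.6%) and Mycn (26.3%) were under 50%, while E2f1 (95.4%), E2f4 (96.4%) and Rbl2 (112%) were near the others. Cdkn2a, which encodes the inhibitor p16 and the p53 activator Arf, was at 317% of the median but at only 4.12 CPM.

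**Figure D5:**
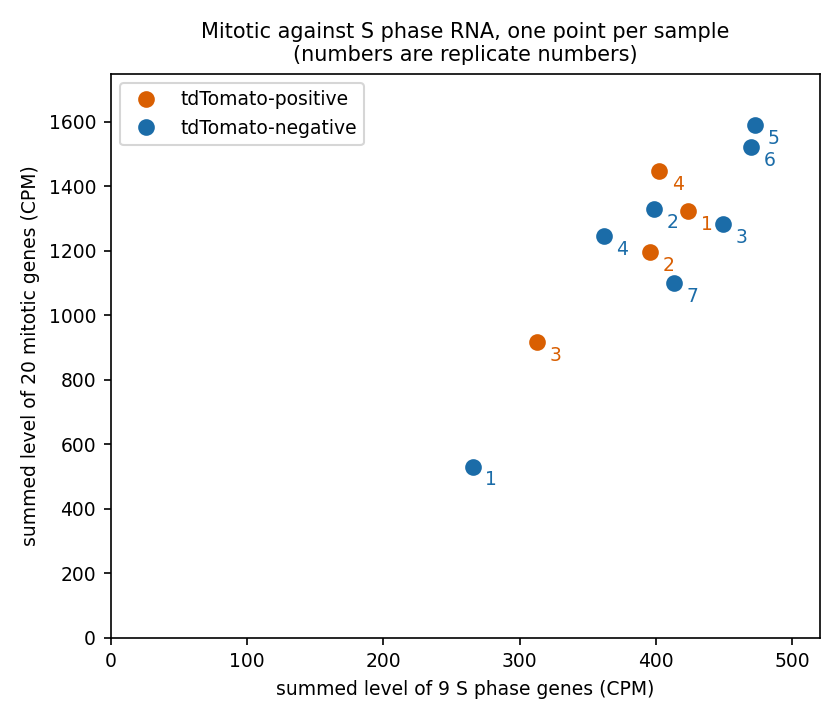
Summed CPM of the 20 mitotic genes (vertical axis) against the 9 S phase genes (horizontal axis) in each sample, with replicate numbers, tdTomato-positive in orange and tdTomato-negative in blue. tdTomato-negative replicate 1, at 531 mitotic and 266 S phase CPM, lies below all other samples on both axes, with tdTomato-positive replicate 3 next at 916 and 313 CPM.

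Replicate 1 also differed in its tissue makeup. Its median log2 ratio to the other negative samples was -3.42 for the hair list, -1.998 for the hair follicle regulators, -2.12 for the erythroid list (Hba-a2 and Hbb-bs at 0, as in tdTomato-positive replicate 3, and Hbb-bs also at 0 in tdTomato-negative replicate 7), 1.19 for the fibroblast list, 1.01 for the sebaceous list and 0.76 for the suprabasal list. The basal list was at 0.27, the leukocyte list at 0.34 and the stress keratins at -0.20. Its total of 7766340 counts lay within the range of the other samples, 7190752 to 9749842. Replicate 7 had less hair RNA still, with a hair list median of -6.86, and its 20 mitotic genes were all below the median of the other negative samples by a median of only -0.26. tdTomato-positive replicate 3, the lowest positive sample, had 19 of 20 mitotic genes below the other positive samples (median -0.47) and all 9 S phase genes (median -0.37), with lower medians for the hair (-1.69), neutrophil (-2.08), erythroid (-1.61) and leukocyte (-0.65) lists and higher medians for the sebaceous (0.99), suprabasal (0.72), muscle (0.69), melanocyte (0.56) and adipocyte (0.44) lists. The part of these differences in the cell cycle values was not tested.

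Across samples the members varied together. The median Pearson correlation of log2 CPM between members was 0.848 over the 11 samples (496 pairs) and 0.669 over the 10 samples without tdTomato-negative replicate 1. It was 0.915 and 0.740 between mitotic genes, 0.849 and 0.743 between S phase genes, and 0.829 and 0.631 between the classes. The G1/S genes were less like the mitotic genes, at 0.516 and 0.459. These correlations describe samples that differ in hair content and group, and the part of either in them was not tested.

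Outside the lists, genes whose log2 CPM was most like the mean of the mitotic genes over the 11 samples included Cep55, Spag5, 2810417H13Rik, Kpna2, Dbf4, Ercc6l, Fanca, Fignl1 and Prr11, with Pearson correlations from 0.973 to 0.937 among 14366 genes. Cep55, an abscission protein, had 13.2, 9.84, 6.47 and 12.8 CPM in positive samples, and 3.48 CPM in negative replicate 1 against 9.18 to 16.2 CPM in the other negative samples. Its lowest positive value was in replicate 3, as for the mitotic genes. Without replicate 1 the 10 most alike were Elavl1, Ptma, Sec23ip, Dbf4, Hnrnpf, 2810417H13Rik, Abce1, Srsf3, Snrpd1 and Gng5, from 0.971 to 0.946. Dbf4, the activator of the Cdc7 kinase, and 2810417H13Rik were in both.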

How the data were processed

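Back skin gave 11 total RNA libraries, grouped by the labels into 4 with tdTomato-positive and 7 with tdTomato-negative marrow. Libraries were depleted of ribosomal RNA with RNase H and sequenced on a NextSeq2000, per the labels' protocols. Per the submitters' processing notes, bcl2fastq, Trim Galore and RSEM were used with build GRCm38. The sources used here give no versions, aligner or strand setting.

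Per the file headers, the authors' expected counts are RSEM estimates per gene, not normalized, with reads of several genes divided between them. The deposited TPM values are per effective length, with an equal sum in every sample. The FPKM values and the other columns, lengths, deposited by the authors were not used. Totals ranged from 7190752 to 9749842 counts. The Poisson interval of the summed mitotic reads covers counting error only, since no molecular identifiers are named in the labels. Intervals of log2 fold changes and slopes rest on the edgeR standard errors, which also include variation among samples.

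Expected counts were rounded and tested with edgeR 4.0.16 in R 4.3.3 (glmQLFit in legacy mode, glmQLFTest, TMM, filterByExpr with minimum count 10 and minimum total 15), which left 14588 of 24411 genes. Calls are Benjamini-Hochberg adjusted p under 0.05 over all genes tested. The 3 fits were group alone, group with log2 summed CPM of the 24 hair genes, and group with that of the 4 stress keratins, and the list genes of a slope stayed out of its counts. Standard errors are the log2 value over the square root of F. Log2 ratios of one sample to others used CPM plus 0.5. No 2 libraries were copies (lowest chi-square per degree of freedom 3.53). The tests were checked on simulated data, where small changes were mostly missed. Between the groups 29.9% of simulated log2 changes of 0.585 and 64.2% of those of 1 were called. Of simulated hair slopes 4.55% of those of 0.1 and 58.2% of those of 0.2 were called. For the stress keratins it was 13.4% of slopes of 0.5 and 74.6% of slopes of 1.

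The members and lists were chosen with earlier results of these data known. Named were all members, 9 of them and the 3 with the smallest p in each direction of each comparison in full, and the 2 genes with the smallest p of each further list. Alternatives were other normalizations and filters, DESeq2 1.42.0, limma 3.58.1 (voom, quality weights, trend on log2(TPM + 1)), further covariates, a block for replicate numbers and each sample left out in turn. One of the 10 genes most like the mitotic mean over 11 samples is not reported here. Promoters and gene positions are from RefSeq on GRCm38.p6.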

Additional observations from a re-analysis of the deposited data

Results flagged for a closer look

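For 5 of 72 sets of values, each a member in 1 group of samples or a summed level, the highest or lowest sample stood apart from the rest by a Dixon gap test, where chance gives about 1 in 20. In tdTomato-negative replicate 1, Cdk1 was at 9.27 CPM against 25.6 to 32.2 CPM in the other 6 negative samples, Ccnb2 at 6.57 CPM against 16.0 to 21.8 CPM, Birc5 at 4.12 CPM against 15.9 to 23.3 CPM, and Tpx2 at 17.6 CPM against 35.4 to 48.6 CPM. These 4 genes are from the same library, so they are not separate observations. In tdTomato-positive replicate 3, Ccnb1 was at 24.2 CPM, where positive replicates 1, 2 and 4 had 38.1 to 40.9 CPM.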

How the results depend on the processing

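Of the members, 0 were called between the groups and along the stress keratins under every alternative run, against 0 to 6 along hair content. The genes called between the groups numbered 0 by edgeR (2448 at an unadjusted p under 0.05), 83 with DESeq2, which left 1981 adjusted p-values unset, 2093 with voom quality weights, and 0 to 3 leaving out 1 sample at a time. Along hair, against 1633 genes, 25 histone genes and 0 members, adding the stress keratins gave 862 genes, 0 histone genes and a mitotic median of 0.14. Dropping the group term gave 2933 genes, 47 histone genes and 1 member. DESeq2 gave 2071 genes, 45 histone genes and 2 members, no filter 1505 genes and 1 member, and leaving out tdTomato-negative replicates 1 and 7 together, chosen after seeing the data, 249 genes and 0 histone genes. Leaving out 1 sample at a time gave 0 to 6 members, 10 to 30 histone genes, mitotic medians of 0.060 to 0.20 and S phase medians of 0.018 to 0.096. Along the stress keratins, against 18 genes, DESeq2 called 600, voom 8, quality weights 6, limma-trend 9, the added hair term 6 (mitotic median 0.30), a mean z-score 3 and no group term 923. Leaving out 1 sample gave 0 to 122 genes (122 without tdTomato-negative replicate 1, 0 without replicate 3, 35 without tdTomato-positive replicate 3, and 2 to 7 without any of the others) and S phase medians of -0.063 to 0.15. Of the alternatives for single named genes, 7 passed the threshold in addition, 0 reversed a call, and 11 changed sign with a shift of at least 1 SE. The other 710 kept their sign or changed it by under 1 SE. Shifts in size without a change of sign were not counted. Ccnb1 between the groups, for example, went from 0.056 to 0.435 with hair RNA as a covariate. The cause of these changes was not tested.

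The labels do not say that equal replicate numbers mark paired samples, and the deviations of same-numbered samples correlated at -0.041, -0.14, -0.054 and 0.34, with 0 of 4 positive and 1 of 4 negative samples most like their own number. With the replicate block on replicates 1 to 4 the S phase median was 0.10 and the mitotic median 0.18, with 0 genes called. The same 8 samples with no block, a fit added after seeing the data, gave 0.067 and 0.14. The 95% interval of the Mki67 group difference ran from -0.56 to 0.48.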
